A study of Saccharomyces cerevisiae with 24 samples.

Results

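RPL2A (YFR031C-A) and RPL2B (YIL018W) are the duplicate genes for the ribosomal protein Rpl2 of budding yeast, and each carries a single intron. They were taken by their gene identifiers and are 2 of the 284 intron-containing genes that the deposited files list. Both were picked because earlier values from these same libraries showed RPL2A less spliced when Nab2 was withdrawn, so every value of Nab2-AA against Control-AA below is a description and carries no test. Splicing was read from nascent RNA, which is RNA still attached to chromatin, by a pair of assays. Single Molecule Intron Tracking (SMIT) reads the 3' end of each RNA, where RNA polymerase II stood, together with whether the intron was still present. Nanopore long reads show the start, the intron and the end of single molecules.

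All cells here grew in YPAD medium to log phase and carried tor1-1, a deletion of FPR1 and RPL13A fused to 2xFKBP12. In such anchor-away cells rapamycin ties a protein tagged with FRB to the ribosomal protein Rpl13A, which carries it out of the nucleus. Nab2-AA cells were MATalpha and also carried NAB2-FRB. Control-AA cells were MATa and had no FRB tag, so mating type and tag cannot be told apart. Both received rapamycin at 1 ug per ml. For SMIT each strain gave 1 library at each of 0, 10 and 30 min, and for long reads 2 libraries at 10 min. All 6 anchor-away SMIT libraries list RPL2A and 0 list RPL2B. The 14 SMIT libraries of the wild type and the deletion strains list neither gene, so the planned test of deletion strains could not be run for them.

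The paralogs make the same protein of the large ribosomal subunit, and RPL2B is the second copy left by an ancient genome duplication. Few genes of budding yeast have introns, but most ribosomal protein (RP) genes do, usually close to the start codon, and splicing can take place while the polymerase is still transcribing. Nab2 binds poly(A) tails in the nucleus and takes part in 3' end formation, tail length control and export of mRNA. When a transcript is not ended at its own gene, the polymerase can run into the next gene on the same strand and make a joint, or chimeric, RNA.

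On the build sacCer3, RPL2A lies on the minus strand of chromosome VI from 220507 to 221418, and its intron as read from alignment gaps spans 221268 to 221414, which is 147 nt. RPL2B lies on the plus strand of chromosome IX from 316768 to 317932, with an intron of 400 nt from 316772 to 317171. In both genes the intron follows 4 coding nt, and 761 coding nt follow it. The paralogs thus differ in intron length and not in where the intron sits. Their neighbours also differ. Upstream of RPL2A on the same strand lie RRT5, at a distance of 671 nt, and then RPL29, a gene for another protein of the large ribosomal subunit, at 1839 nt. Upstream of RPL2B lies FAF1, a factor of small-subunit assembly, at 634 nt. Downstream on the same strand lie SMC2, a condensin subunit, 400 nt past RPL2A, and SNL1, an endoplasmic reticulum protein that regulates Hsp70, 3521 nt past RPL2B.

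SMIT reads downstream of 3' splice sites numbered 1263469 to 1640980 per library, over 59 genes. The long-read libraries held 10013 and 14202 distinct nuclear alignments in Control-AA and 32054 and 11436 in Nab2-AA. RPL2A took 212 and 269 of them in Control-AA and 620 and 219 in Nab2-AA; RPL2B took 254 and 353, and 578 and 242. These were between 1.80% and 2.54% of a library, with RPL2A at 2.12% and 1.89% in Control-AA against 1.93% and 1.92% in Nab2-AA. RPL2B took 2.54% and 2.49% against 1.80% and 2.12%. The share was not compared over all genes, so no difference between strains is read from it. The labels do not say whether libraries of a strain came from separate cultures. Shares of reads in bulk RNA cannot tell fewer cells with a transcript from less of it per cell. PCR copies are not independent molecules, so all intervals cover counting error only. The coding parts of the paralogs are very similar, but 0 read names aligned to both genes in the same orientation as the gene, and 92.5% to 96.6% of their reads had the highest mapping quality of 60.

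With Nab2 withdrawn for 10 min, RPL2A was spliced in fewer long reads, and RPL2B stood lower by a smaller amount. Spliced reads had an alignment gap whose ends lay no more than 10 nt from those of the intron, and unspliced reads aligned over 90% of it. Of the RPL2A reads that spanned the intron, 206 of 211 (97.6%, exact 95% interval 94.6 to 99.2) and 255 of 267 (95.5%, 92.3 to 97.7) were spliced in Control-AA. In Nab2-AA they were 534 of 615 (86.8%, 83.9 to 89.4) and 188 of 214 (87.9%, 82.7 to 91.9). Both Nab2-AA libraries lay below both Control-AA libraries. The strain means were 87.3% ± 0.722 and 96.6% ± 1.50 (SD, n = 2), a difference of -9.23 points.

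For RPL2B, 241 of 252 reads (95.6%, 92.3 to 97.8) and 339 of 350 (96.9%, 94.4 to 98.4) were spliced in Control-AA. In Nab2-AA it was 527 of 576 (91.5%, 88.9 to 93.6) and 224 of 237 (94.5%, 90.8 to 97.0). The groups again did not overlap, although the intervals of single libraries did. The means were 93.0% ± 2.14 in Nab2-AA and 96.2% ± 0.864 for the control (SD, n = 2). They differed by -3.24 points, by -1.73 without Nab2-AA replicate 1, and by -0.985 without reads that ran in from upstream or ended far past the gene. In order, RPL2A and RPL2B in Control-AA were highest and did not differ beyond their spread, RPL2B in Nab2-AA followed, and RPL2A in Nab2-AA was lowest. The authors' deposited table gives RPL2A fractions of 0.982 and 0.949 in Control-AA and 0.864 and 0.858 in Nab2-AA. For RPL2B the authors' deposited table gives 0.948 and 0.974 against 0.916 and 0.933.

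**Figure D1:**
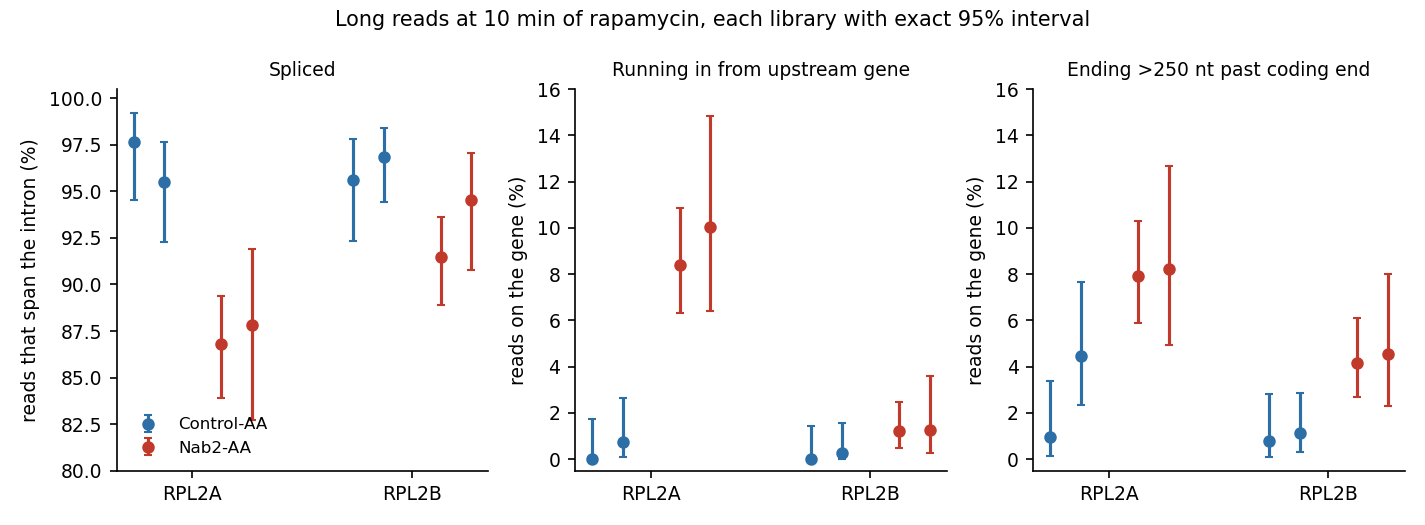
Each point is 1 long-read library with its exact 95% interval, with Control-AA in blue and Nab2-AA in red. The left axis gives spliced reads as a percentage of reads spanning the intron and starts at 80%; the other axes give percentages of all reads on the gene. RPL2A in Nab2-AA stands at 86.8% and 87.9% spliced, and 8.39% and 10.0% of its reads run in from upstream.

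Such a pattern was common among the introns measured. Among 121 introns with at least 10 spanning reads in every library, both Nab2-AA libraries lay below both Control-AA libraries for 50.4% and above both for 6.61%, and the median difference was -5.37 points. The difference of RPL2A ranked 37 from the lowest and that of RPL2B 80. Of the 78 RP introns, 67 had a lower mean in Nab2-AA, 43 of them without overlap, with a median of -5.39 points. In Control-AA RPL2A and RPL2B ranked 4 and 6 from the highest of the 121 in spliced share. Among 32 pairs of RP paralogs measured, the RPL2 pair had the smallest gap in Control-AA, 0.322 points against a median of 12.4. Its gap between the differences, -5.99 points for RPL2A minus RPL2B, was near the median size of 7.03 and ranked 20.

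RPL2A reads that had run in from upstream were more frequent in Nab2-AA, and nearly all that spanned the intron were unspliced. A read counted as running in when it covered at least 50 nt of the nearest upstream gene on the same strand. For RPL2A these were 0 of 212 reads (up to 1.42%, taking 3 counts as the limit that a count of 0 allows) and 2 of 269 (0.743%, exact 95% interval 0.0902 to 2.66) in Control-AA. They were 52 of 620 (8.39%, 6.33 to 10.9) and 22 of 219 (10.0%, 6.40 to 14.8) in Nab2-AA. The groups did not overlap, with means of 9.22% ± 1.17 against 0.372% ± 0.526 (SD, n = 2). For RPL2B the counts were 0 of 254 (up to 1.18% by the same limit of 3 counts) and 1 of 353 in Control-AA, and 7 of 578 and 3 of 242 in Nab2-AA, which gave 0.142% ± 0.200 and 1.23% ± 0.0202. Over 123 genes with at least 10 reads in every library, both Nab2-AA libraries lay above both Control-AA libraries in 23.6%. The median difference over these genes was 0, RPL2A ranked 15 from the highest and RPL2B 43.

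The reads that entered RPL2A began mainly at RPL29 and not at RRT5, the nearer gene. Of the 74 run-in reads of Nab2-AA, 57 covered at least 50 nt of RPL29 and 56 began upstream of the RPL29 start codon. In the replicates, 33 of 52 and 15 of 22 began within 10 nt of a single position, 2375 nt upstream of the RPL2A start codon. That position lies 356 nt upstream of the RPL29 start codon. RPL29, which is not the nearest neighbour, was singled out after these starts had been seen. Another 13 began inside RRT5. The plot of read starts shows these starts as a tight group, while the starts inside RRT5 are scattered. In Control-AA both run-in reads, out of 481 in all, also began upstream of RPL29. For RPL2B, 5 of the 10 run-in reads of Nab2-AA began inside FAF1, and 4 began in the 60 nt upstream of the FAF1 start codon.

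**Figure D2:**
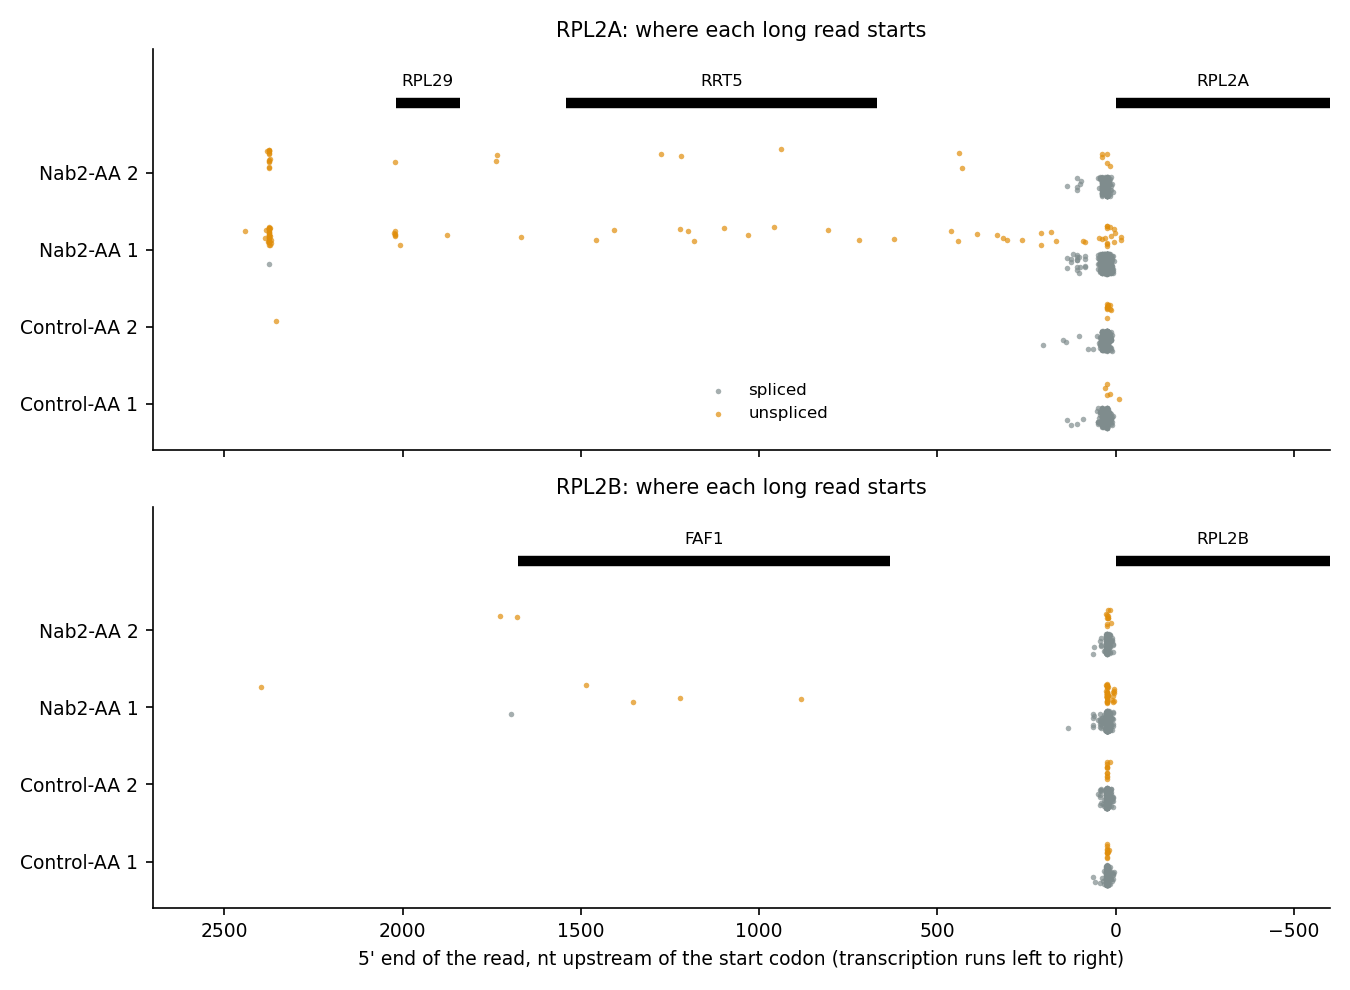
Each point is 1 long read that spans the intron, placed by the distance of its 5' end upstream of the start codon in nt, with spliced reads in grey, unspliced reads in orange, and 1 line per library. Black bars mark coding spans, and points are spread vertically for visibility. In both Nab2-AA libraries unspliced RPL2A reads gather 2375 nt upstream, where 1 read is spliced, and the other spliced reads lie near the RPL2A start codon.

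Of the 74 run-in reads of Nab2-AA, 38 had an alignment gap just upstream of the RPL29 coding span and an intact RPL2A intron. The gap is known here from alignments alone, with no annotation used to name it. This gap of 331 nt, from 223441 to 223771 on chromosome VI, ended 3 nt before the RPL29 start codon and left 25 nt between the common start and the start codon. Of 49 Nab2-AA reads that reached across this stretch, 41 lacked it (83.7%, exact 95% interval 70.3 to 92.7). Among the 47 of these that also spanned the RPL2A intron, 38 lacked the upstream stretch and kept the RPL2A intron, 8 kept both, 1 lacked both and 0 lacked the RPL2A intron alone. The replicates gave 28 and 10 of the molecules with the upstream stretch alone removed. Over all run-in reads that spanned the RPL2A intron, 1 of 70 was spliced in Nab2-AA (1.43%, 0.0362 to 7.70). In the other introns measured, 49 of 453 run-in reads were spliced (10.8%), and in the 15 of them with at least 10 such reads the share ran from 0% to 47.2%, with a median of 8.70%. In 4 of these 15 it lay below that of RPL2A.

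Among reads that began at RPL2A itself, the strains did not differ beyond the spread between libraries. For reads starting inside the gene or up to 200 nt upstream of the start codon, the spliced share was 97.6% and 95.8% in Control-AA and 96.4% and 97.4% in Nab2-AA. The groups overlapped, and the means were 96.7% ± 1.26 and 96.9% ± 0.725 (SD, n = 2). Between 82.2% and 95.3% of all RPL2A reads in a library ended within 250 nt past the coding end. This share thus rests mainly on such reads and says little on RNA that ends inside the gene. The difference with all reads, -9.23 points, became 0.157 points. The 200 nt limit was set after the read starts had been seen, and with 100 nt the difference was 0.299. Of the 81 and 26 unspliced RPL2A reads of Nab2-AA, 50 and 19 ran in from upstream and 20 and 5 began at the gene. The other 11 and 2 began more than 200 nt upstream but covered less than 50 nt of RRT5. In Control-AA 5 of 5 and 11 of 12 unspliced reads began at the gene.

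Most unspliced RPL2B reads, by contrast, began at RPL2B. Of 49 and 13 in Nab2-AA, 44 and 11 did so, and all 11 and 11 in Control-AA did. Among reads starting at RPL2B the spliced share was 95.6% and 96.9% in Control-AA and 92.3% and 95.3% in Nab2-AA, with means of 96.2% ± 0.864 and 93.8% ± 2.15 (SD, n = 2). The difference of -2.45 points was near the spread of the Nab2-AA libraries. Over 116 introns with at least 10 such reads in every library the median difference was -4.89 points, 85 lay below 0 and 31 above. RPL2A ranked 29 from the highest and RPL2B 41.

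**Figure D3:**
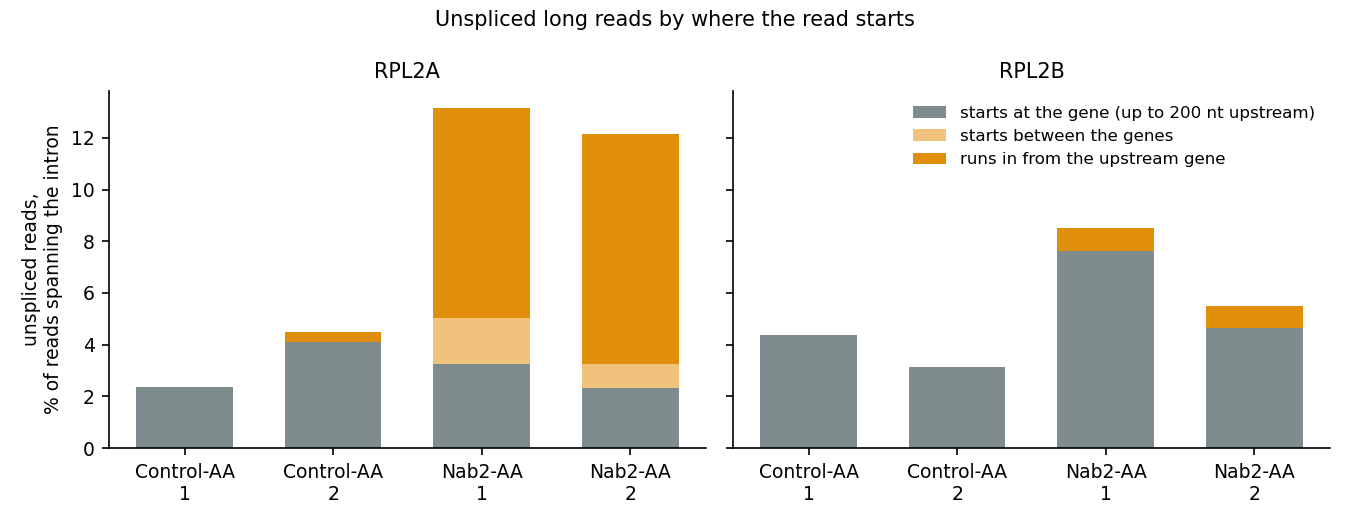
Bars give unspliced long reads as a percentage of all reads spanning the intron in each library, split by where the read begins. The part labelled as starting between the genes holds all other reads that began more than 200 nt upstream. In RPL2A of Nab2-AA the run-in part holds 50 of 81 and 19 of 26 unspliced reads, while the grey part, reads that start at the gene, holds 20 of 615 and 5 of 214 spanning reads, against 5 of 211 and 11 of 267 in Control-AA.

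**Figure D4:**
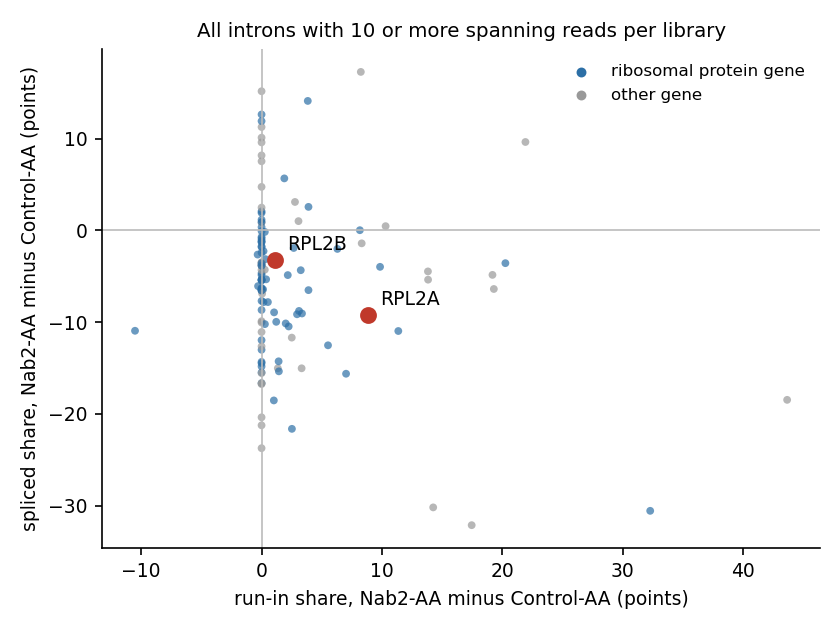
Each point is 1 of 121 introns, with the difference in run-in share (Nab2-AA minus Control-AA, percentage points) on the horizontal axis and the difference in spliced share on the vertical axis, RP genes in blue and other genes in grey. RPL2A stands at 8.84 and -9.23 and RPL2B at 1.08 and -3.24, and introns with a run-in difference of 0 cover both signs of the spliced difference.

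The most frequent start and 3' end of spliced reads lay at the same positions in both strains. In every library the most frequent start of spliced reads was 24 nt upstream of the start codon for both paralogs. For RPL2A 47.4% to 52.5% of spliced reads began there, with a second start at 39 nt in 10.7% to 17.6%. For RPL2B 65.6% to 68.9% began at 24 nt. The most frequent end lay 162 nt past the coding end in RPL2A, with 15.5% to 23.0% of spliced reads, and 90 nt past it in RPL2B, with 33.9% to 35.5%. Between 92.9% and 97.1% of spliced reads ended within 250 nt past the coding end. The paralogs thus shared a start distance and differed in the place and sharpness of their 3' ends.

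Reads ending more than 250 nt past the coding end were more frequent in Nab2-AA for both genes, by an amount that depended on the limit. For RPL2A they were 2 of 212 (0.943%, exact 95% interval 0.114 to 3.37) and 12 of 269 (4.46%, 2.33 to 7.66) in Control-AA, and 49 of 620 (7.90%, 5.90 to 10.3) and 18 of 219 (8.22%, 4.94 to 12.7) in Nab2-AA. For RPL2B they were 2 of 254 (0.787%) and 4 of 353 (1.13%) against 24 of 578 (4.15%) and 11 of 242 (4.55%). The groups did not overlap in either gene. The means were 8.06% ± 0.223 and 2.70% ± 2.49 for RPL2A, and 4.35% ± 0.278 and 0.960% ± 0.244 for RPL2B (SD, n = 2). In 70.7% of the 123 genes both Nab2-AA libraries lay above both Control-AA libraries, and the median difference was 9.13 points. Those of RPL2A, 5.36, and RPL2B, 3.39, lay below that median. With a limit of 100 nt, short of the usual RPL2A end, they were 0.694 and 2.01.

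Reads ending near the usual mRNA 3' end were nearly all spliced, and those ending elsewhere less so. In Nab2-AA, RPL2A reads ending within 250 nt past the coding end were spliced in 97.7% and 98.3% of cases. Those ending inside the coding span were spliced in 29.6% and 37.5%, and those ending beyond in 35.4% and 27.8%. Of the 56 and 21 Nab2-AA reads ending inside RPL2A, 34 and 12 had run in from upstream. Where a read started and where it ended thus cannot be told apart in these shares. In Control-AA the reads ending within 250 nt were spliced in 99.5% and 98.8%. Ends inside the gene gave 6 of 8 and 11 of 12 spliced there, and ends beyond gave 0 of 2 and 4 of 12, numbers too small to rank. In RPL2B of Nab2-AA, ends within 250 nt gave 97.9% and 97.2%, and ends inside the gene 53.7% and 54.5%. Ends beyond RPL2B gave 4 of 23 and 8 of 10, so the replicates disagreed. Of the 107 unspliced RPL2A reads of Nab2-AA, 9 and 8 in the replicates both ran in from upstream and ended beyond the gene. Only 9 of 81 and 2 of 26 did neither. Unspliced RPL2A reads that reached at least 50 nt into SMC2 numbered 21 and 9 in Nab2-AA, against 0 and 2 in Control-AA. Spliced reads that did so numbered 14 and 2 in Nab2-AA, against 0 and 2 in Control-AA. All RPL2A reads numbered 620 and 219 in Nab2-AA, against 212 and 269 in Control-AA.

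In SMIT the spliced fraction of RPL2A was lower after rapamycin in Nab2-AA, and in Control-AA it was higher. The fraction was averaged with equal weight over the 13 bins of 30 nt past the 3' splice site that held at least 10 reads in all 6 libraries. In Nab2-AA it stood at 0.874 (95% counting interval 0.859 to 0.889) at 0 min, 0.748 (0.736 to 0.760) at 10 min and 0.729 (0.710 to 0.748) at 30 min. In Control-AA it stood at 0.743 (0.721 to 0.765), 0.929 (0.921 to 0.938) and 0.804 (0.783 to 0.824) at these times. All reads past the 3' splice site, those outside these bins included, numbered 5357, 10529 and 6235 in Nab2-AA, against 4877, 10718 and 5129 in Control-AA. Bins of unlike depth had equal weight, with 32 to 1231 reads per bin in Control-AA at 0 min. Before rapamycin Nab2-AA thus lay above Control-AA by 0.131, the highest of 57 genes measured, and at 10 min the difference was -0.181.

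Both strains moved, so the difference of their changes holds a part from each. The change from 0 to 10 min was -0.126 in Nab2-AA, 10 from the lowest of 57 genes, and 0.186 in Control-AA, the highest of the 57. At 30 min the changes were -0.145 and 0.0605, again the highest in Control-AA. The difference of the changes was -0.312 (95% counting interval -0.343 to -0.281) at 10 min, the lowest of the 57, and -0.205 (-0.244 to -0.166) at 30 min, 5 from the lowest. Values below -0.1 were found in 22.8% of genes at 10 min and 31.6% at 30 min, and the medians over genes were -0.0320 and -0.00892. Over the 12 RP genes the medians were -0.00105 and -0.000486, with 7 below 0 and 5 above at both times. Most of these 12 stood close to a fraction of 1 in every library, which left little room for a change. At both times 2 of the 12 lay below -0.1, RPL2A among them. The authors' deposited table, whose scale is not stated, gives RPL2A scores of -0.880 (10 min) and -0.859 (30 min) for Nab2-AA, against 0.791 and 0.280 for the control strain. There is 1 library per strain and time, so no value here has a replicate check. The 10 min libraries also held the most RPL2A reads in both strains; the part of depth in the result was not tested.

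Along the gene, Nab2-AA stood furthest below its 0 min value just past the 3' splice site. With RNA ends in the first 30 nt of exon 2, 86.2%, 55.4% and 50.5% of reads were spliced at 0, 10 and 30 min in Nab2-AA. In Control-AA the shares there were 82.0%, 85.0% and 88.4%. From 31 to 150 nt the shares were 92.7%, 83.1% and 82.1% in Nab2-AA, against 85.5%, 96.5% and 89.5% in Control-AA. Past 150 and up to 300 nt every library had a dip, to 81.8%, 66.9% and 67.9% in Nab2-AA, against 61.8%, 91.1% and 71.4% in Control-AA. Past 300 nt and up to the coding end 94.6%, 92.0% and 89.2% were spliced in Nab2-AA, against 89.0%, 98.1% and 92.2% in Control-AA. In each zone Nab2-AA was below its own 0 min value at both later times, and Control-AA was above its own at both.

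**Figure D5:**
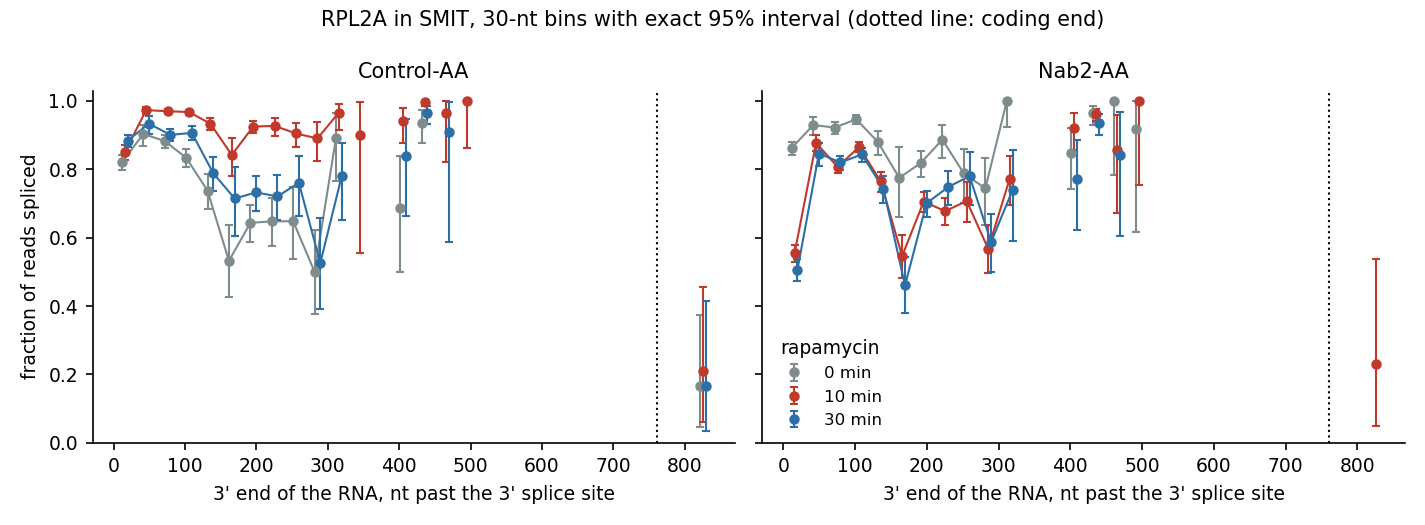
Each point is a 30-nt bin of RPL2A with at least 10 reads in 1 SMIT library, with its exact 95% interval; the horizontal axis is the RNA 3' end in nt past the 3' splice site and the vertical axis the fraction of reads spliced. In Nab2-AA the 10 and 30 min points lie below the 0 min points in every bin up to 300 nt, and the first bin stands at 86.2%, 55.4% and 50.5%; in Control-AA the 10 min points are highest in all bins up to 300 nt but the first.

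SMIT reads with RNA ends in the last 100 nt of the intron made up 33.7%, 38.9% and 52.7% of RPL2A reads at 0, 10 and 30 min in Nab2-AA. In Control-AA they were 41.3%, 20.2% and 37.2%. Over 57 genes the median share was 15.5%, 22.9% and 24.5% in Nab2-AA, against 21.9%, 20.2% and 20.5% in Control-AA. RPL2A ranked 11, 10 and 2 from the highest in Nab2-AA at 0, 10 and 30 min. In Control-AA it ranked 6, 29 and 7 at these times.

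At 10 min, the time that both assays share, the order of the strains was the same. It was 0.748 against 0.929 in SMIT and 87.3% against 96.6% in long reads, Nab2-AA first. The SMIT order rests on 1 library per strain, and Control-AA stood at 0.743 and 0.804 at 0 and 30 min. Nab2-AA minus Control-AA in SMIT was 0.131 at 0 min and -0.0744 at 30 min. The levels are not on a common scale, since SMIT counts RNA ends along the gene and most long reads of RPL2A ended near the mRNA 3' end. Among long reads that began at RPL2A, Nab2-AA minus Control-AA was 0.157 points. The SMIT values hold no read start, so run-in RNA could not be set apart there. RPL2A was picked with earlier values of these libraries known, so the shared order is no check of either assay.

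By the smallest root mean square difference over the 6 SMIT libraries, after each gene's own mean was subtracted, RPL2A was most like RFA2, a subunit of the replication protein that binds single-stranded DNA (0.0559). YPR063C (0.0563) and RPO26, part of every nuclear RNA polymerase (0.0581), followed. The Control-AA change at 10 min was smaller in all of them than in RPL2A, and RFA2 stood at 0.841, 0.899 and 0.870 in Control-AA and 0.922, 0.897 and 0.834 in Nab2-AA. Among 83 introns with at least 20 spanning long reads in every library, the spliced shares most like RPL2A over the 4 libraries were those of RPS16B (1.63 points), RPS23A (1.70) and RPL21A (3.05). All code for ribosomal proteins. RPS16B had 86.1% ± 1.56 in Nab2-AA against 94.7% ± 1.88 in Control-AA, and 0% of its reads ran in from upstream in either strain. The introns most like RPL2B were RPS4A (1.70 points), RPL17A (1.73) and RPS4B (1.80).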

How the data were processed

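The SMIT files deposited by the authors hold, for each position of an RNA 3' end in a gene, the read count and the fraction spliced, raw and after a correction that is not described. The authors' difference score, per the file headers, has no stated scale. The authors' long-read table holds a fraction spliced per gene. The tools named per the submitters' processing notes, with no role, are bedtools 2.29.2, SAMtools 1.9, minimap2 2.17, cutadapt 1.9.1 and HISAT2 2.1.0, and the build is sacCer3. Whether PCR copies were removed is not given in the sources used here. The long-read alignments were deposited with mapping quality as a score.

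Repeated alignment lines were dropped. For each gene of the authors' table the most frequent gap of 40 to 1500 nt with at least 10 reads was taken as its intron (159 genes). Gene spans and names came from the RefSeq table of the R64 assembly and strands from systematic names. Counting intervals are 95% exact binomial (Clopper-Pearson), or 1.96 standard errors for averages over bins. The code was tested on simulated data. Scripts ran in Python 3.11.15 with SciPy 1.17.1, matplotlib 3.10.9, pandas 2.3.3 and numpy 2.4.6.

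No test is given: the members and lists were chosen with earlier results of these data known, and an exact permutation of 2 against 2 libraries cannot reach a two-sided p below 0.333. The planned count test of deletion strains was not run, because those libraries do not list either gene. Named genes were the members, their neighbours on the same strand, and the 3 genes or introns most like each member, with RPL29 added after its values were seen; RP genes were symbols RPL or RPS with a digit. Alternatives covered the gap tolerance, read sets, overlap and distance limits, bins and the corrected fraction.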

Additional observations from a re-analysis of the deposited data

Results flagged for a closer look

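The SMIT fraction spliced of RPL2A moved in opposite directions in the strains after rapamycin, lower in Nab2-AA and higher in Control-AA at both times. The difference of changes was -0.312 at 10 min and -0.205 at 30 min. This contrast was not tested, since each strain and time has 1 library.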

How the results depend on the processing

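For 8 results 66 alternatives were computed. Of these, 54 stayed within the spread, 10 moved beyond it and 2 reversed. For long reads the spread was the root of the summed squared SDs of the strains. Leaving out a single library cannot move a difference beyond this spread, so those alternatives had to stay within it. Leaving out read names shared with the paralog changed nothing, since no such name was found. Both kinds are among the 54 and are no check of the results. For the spliced share of RPL2A the difference of -9.23 points reversed to 0.157 and 0.299 when only reads starting within 200 or 100 nt of the gene were kept, limits chosen after seeing the data. It became -0.0894 without reads that overlap the upstream gene or end beyond the gene, and -6.22 without those ending beyond; these settings remove the read classes by construction. With single libraries left out it ran from -10.3 to -8.17, and for RPL2B from -4.75 to -1.73. The run-in difference ran from 8.02 to 9.67 in RPL2A and from 0.942 to 1.23 in RPL2B, where an overlap of 1 nt gave 0.800. The difference in reads ending beyond ran from 3.60 to 7.12 in RPL2A and from 3.19 to 3.59 in RPL2B. With a limit of 100 nt past the coding end it was 0.694 and 2.01, and with 500 nt 2.71 in RPL2B; 100 nt lies before the usual RPL2A end at 162 nt. In SMIT the difference at 10 min was -0.271 with all reads summed and -0.411 with the authors' corrected fraction. At 30 min it was -0.251 up to 200 nt and -0.269 with the corrected fraction. The cause was not tested. Other settings for the deletion strains were not run, since those libraries list neither gene. No paired analysis was possible because no result here comes from a test, and the labels do not say that equal replicate numbers mark a shared culture or day. The mean of the differences within replicate numbers equals the difference of means given for the long reads. Few Control-AA reads ran in or ended beyond, which limits their shares.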

Other observations

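In a small number of reads the gap of the intron reached 4 nt further into exon 2, in both paralogs. For RPL2A there were 2 and 3 such reads in Control-AA and 9 and 5 in Nab2-AA, and for RPL2B 2 and 9, and 10 and 2. Reads on the strand opposite to the gene numbered 16 and 24 in Control-AA and 42 and 19 in Nab2-AA at RPL2A. At RPL2B they numbered 16 and 27, and 41 and 16. Between 5.51% and 7.43% of the reads on the genes had a name that occurred on both strands of its library; among the 74 run-in reads of RPL2A in Nab2-AA there were 6.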
